A study of Mus musculus with 16 samples.

Results

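The change that etoposide (ETS) made in melanoma grown in obese hosts was described across all genes in 8 of the 16 tumors of the series: 4 tumors of ob/ob mice taken before therapy and 4 taken after ETS. B16F10 cells, a pigmented melanoma line of C57BL/6 origin, had been injected under the flank skin of mice aged 6 weeks. The ob/ob mouse carries a mutation of the leptin gene and becomes obese, and all 8 tumors shared that host. ETS blocks type II topoisomerases after they cut DNA, and it had been given once a day as 5 injections of 20 mg per kg. The tumors without ETS are labelled as pre-therapy, and the time of their collection is not stated. By that label they precede treatment, so that time and drug cannot be told apart. RNA was taken from whole tumors, which hold host cells beside the melanoma cells. In bulk RNA, a change in the number of cells of a type and a change of RNA per cell cannot be told apart. Each tumor is 1 library, and p-values set the difference between groups against the spread between these tumors. Whether each tumor came from a separate mouse is not stated in the labels. Of the 45777 genes listed, 16888 had no count of 0 in any of the 8 libraries and were tested. The 8 tumors of lean C57BL/6J mice, 4 before therapy and 4 after ETS, had the same injections and were used only for comparison.

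Breaks left by poisoned topoisomerase stabilize the transcription factor p53, which raises inhibitors of the cell cycle such as Cdkn1a and of its own activity such as Mdm2. Fragments of DNA in the cytosol can be sensed by cGAS and STING, and RNA by Rig-I-like receptors, and both routes end in type I interferon, whose receptor drives a large set of antiviral genes. Interferon-gamma, made mostly by T and NK cells, drives an overlapping set with guanylate-binding proteins and MHC molecules. Levels are given as CPM (read counts relative to the library total) after TMM scaling, which compares a gene between tumors but not genes with each other. Values of the 4 tumors of a group are given in the order of replicates 1 to 4. A gene is said to rise or fall where the adjusted p of edgeR's quasi-likelihood test was under 0.05, and a log2 fold change is that of ETS minus pre-therapy.

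After ETS, 5417 of the 16888 tested genes changed, 2875 rising (17.0% of the tested genes) and 2542 falling (15.1%). These 2 shares are the background for every count of rising or falling genes in a list given here. With limma on log2(TPM + 1) the majority turned, to 1948 rising and 2428 falling, and the median over all genes shifted by -0.0894. The sizes were unequal in the 2 directions: the median log2 fold change was 1.11 among rising and -0.60 among falling genes, against 0.01 over all tested genes. At 4-fold or more, 556 genes rose and 12 fell. With limits of 2-fold and an unadjusted p under 0.05, 1875 genes were higher (11.1%) and 421 lower (2.49%), so that 81.7% of these were higher with TMM, against 71.0% with log2(TPM + 1) values. The 4 tumors after ETS all lay above the 4 pre-therapy tumors for 16% of the tested genes and all below them for 17.4%. The number of changed genes fell to 3473 without pre-therapy tumor 3 and to 3577 without pre-therapy tumor 4, and it was 4358 without ETS tumor 2.

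The directions also differed by the level of the gene. The tested genes were split by mean level into 4 sets of 4222. In the set with the lowest level, up to 1.60 CPM, 13.8% rose and 3.29% fell. In the set above that, up to 15.1 CPM, 22.8% rose and 11.2% fell. Among genes above 15.1 CPM the order turned, with 14.8% rising and 23.3% falling up to 50.7 CPM and 16.7% and 22.4% above that level. Of the 1875 genes that were higher by 2-fold or more, 715 lay in the lowest set and 810 in the set above it. Of 13497 protein-coding genes, 19.8% rose and 17.2% fell, whereas 10.3% of 1343 long noncoding RNAs rose and 3.95% fell.

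**Figure D1:**
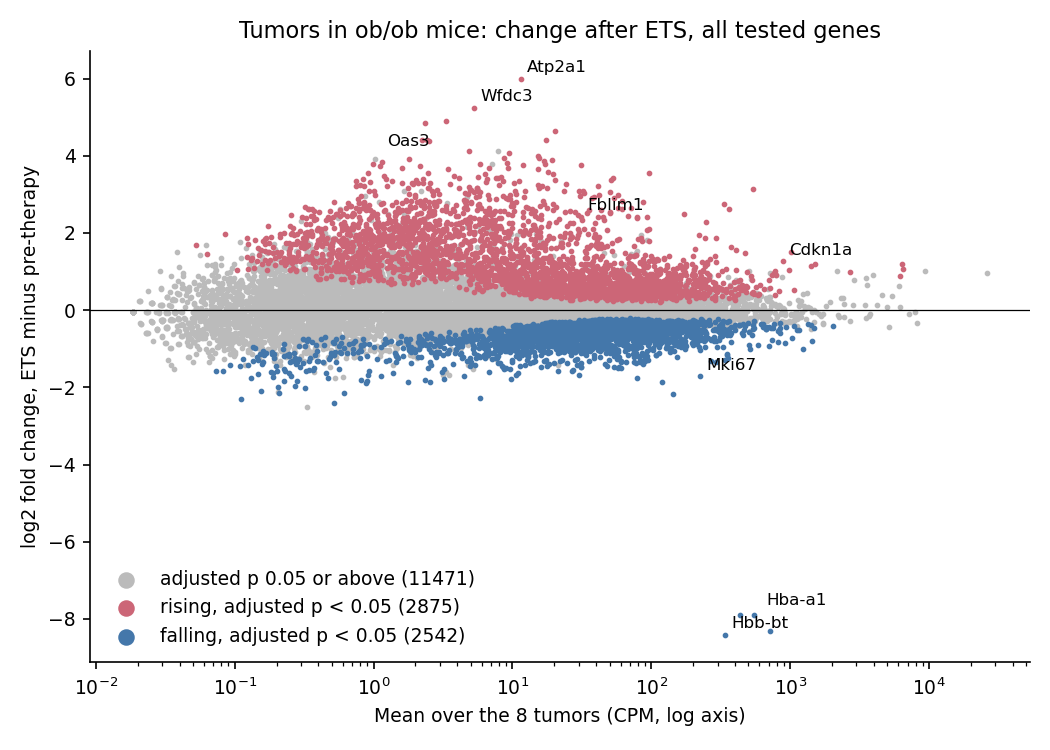
Log2 fold change after ETS (vertical axis) against the mean level over the 8 tumors of ob/ob mice (CPM, log axis), with a point for each of the 16888 tested genes. Red points are the 2875 rising and blue points the 2542 falling genes at an adjusted p under 0.05 (edgeR), and the 4 hemoglobin genes stand alone near -8.

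The first principal component of log2 CPM held 57.2% of the variance and placed all 4 pre-therapy tumors (-69.33 to -21.55) apart from all 4 tumors after ETS (25.91 to 68.48), with pre-therapy tumor 2 and ETS tumor 3 nearest to each other. The second held 16.5% and set ETS tumor 4 (-61.55) apart from the other 3 tumors after ETS (-1.01 to 36.83). Total counts were 47199949 to 57245560 before therapy and 51619026 to 60741964 after ETS, and correlations of log2 CPM between tumors of a group were 0.970 to 0.989. ETS tumor 2 held transcripts of skeletal muscle and of skin. The summed level of 25 skeletal muscle markers was 854 CPM in that tumor, against 70.9 to 94.8 CPM before therapy and 90.6 to 225 CPM in the other tumors after ETS. The basal keratins Krt5 and Krt14 had 1549 and 2276 counts there and 0 in the other 7 tumors, where a count of 0 allows at most 3 counts (up to 0.0636 CPM in the shallowest library). Where the number of genes of a list that rose or fell after ETS differs without ETS tumor 2, that number is given beside it. The 8 markers of the melanoma line, among them Sox10, Tyr and Pmel, were all detected in every tumor and none passed the threshold, with a median log2 fold change of 0.53. Without ETS tumor 4, where their summed level was lowest, 3 of the 8 rose.

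Many targets of p53 rose. Of 35 tested genes of this list, which includes Trp53 itself, 19 rose and none fell, with a median log2 fold change of 0.77. Without ETS tumor 2 the count was 18, and without ETS tumor 4 the list also had 2 falling genes. Cdkn1a, the inhibitor of cyclin-dependent kinases that stops the cycle in G1 (gene ID 12575, chromosome 17, 29090979 to 29100722 in GRCm38), lay at 565, 471, 471 and 589 CPM before therapy and 1359, 1269.6, 1183 and 1219.9 CPM after ETS. Its groups did not overlap, and it had a log2 fold change of 1.26 (SE 0.12, adjusted p = 0.000716). Mdm2, the ubiquitin ligase that removes p53, lay at 67.7, 72.8, 74.1 and 83.9 CPM before therapy and 118, 115, 139 and 157 CPM after ETS, a log2 fold change of 0.82 (SE 0.12, adjusted p = 0.00245). Phlda3, a p53-induced repressor of Akt signaling, had among the smallest p-values of all genes. It lay at 102, 108, 106 and 102 CPM before therapy and 348, 315, 268 and 311 CPM after ETS, a log2 fold change of 1.57 (SE 0.10, adjusted p = 0.000251). In both of these genes, too, every tumor after ETS lay above every pre-therapy tumor.

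The largest rises in the p53 list were of genes with lower counts. Fas, a death receptor, lay at 0.0417, 0.563, 0.186 and 0.0712 CPM before therapy and 1.42, 1.39, 0.976 and 2.21 CPM after ETS (log2 fold change 2.80, adjusted p = 0.0125). Eda2r, another receptor of the TNF family, lay at 1.46, 1.99, 1.07 and 0.766 CPM before therapy and 7.01, 9.52, 8.21 and 5.28 CPM after ETS (log2 fold change 2.51, adjusted p = 0.002), and Dcxr, a carbonyl reductase, at 13.0, 14.9, 10.6 and 9.46 CPM before therapy and 62.1, 60.5, 35.9 and 36.3 CPM after ETS (log2 fold change 2.02, adjusted p = 0.00136). Abca1, the cholesterol exporter, rose by 2.35 on the log2 scale. Ccng1, a target cyclin, rose by 1.56 and Tnfrsf10b, the mouse TRAIL receptor, by 1.17. Not every target moved: Bax, which permeabilizes mitochondria, had a log2 fold change of 0.26 (adjusted p = 0.0839), and Bbc3 (Puma) of -0.00480 (adjusted p = 0.99). Transcripts of Trp53 itself lay at 99.3, 106, 98.6 and 103 CPM before therapy and 86.4, 81.6, 90.2 and 92.9 CPM after ETS, without a change past the threshold (log2 fold change -0.21, adjusted p = 0.0516).

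Genes of cell division fell almost as a block. Of 44 tested genes of mitosis, 43 fell, against 15.1% of all tested genes, with a median log2 fold change of -0.92, and at least 42 fell when any tumor was left out. The exception was Pttg1 (securin) at -0.00270 (adjusted p = 0.987). Mki67, the proliferation antigen that coats mitotic chromosomes, lay at 312, 401, 319 and 334 CPM before therapy and 48.3, 133, 138 and 102 CPM after ETS, a log2 fold change of -1.70 (SE 0.29, adjusted p = 0.00382). Smc4, the condensin subunit, lay at 165, 169, 208 and 203 CPM before therapy and 31.7, 54.6, 57.8 and 59.4 CPM after ETS, a log2 fold change of -1.87 (SE 0.19, adjusted p = 0.00103), with ETS tumor 1 far below the other tumors after ETS. Annotated microRNA genes (Mir15b and Mir16-2) lie within Smc4. Ncapg, another condensin subunit, fell by 1.47 on the log2 scale and Cenpe, a kinesin of the kinetochore, by 1.46. Ccnb1, cyclin B1, was 154, 172, 182 and 174 CPM before therapy and 82.1, 105, 101 and 71.0 CPM after ETS. ETS tumors 1 and 4 were lowest and tumors 2 and 3 highest in most of these genes, and the groups overlapped in Pttg1 alone of the 44.

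The windows printed next show letters that many of these genes share upstream of their starts. The motif TTTGAA, known as the cell cycle homology region (CHR), is bound by the MuvB complexes that repress or activate G2 and M phase genes. It was present, on either strand, in 27 of 38 RefSeq promoter windows (250 bases before to 50 after a start, GRCm38.p6) of the mitosis list, or 71.1%, against 17.9% of all 32851 windows. A window was found for 37 of the 44 genes. Over the windows of all tested genes the share was 12.5%, and over those of all falling genes 15.7%. The motif CCAAT was in 76.3% of the mitosis windows and in 37.4% of all windows. Lists with rising genes held both motifs in varying shares. TTTGAA was in 33.3% of the windows of antiviral effectors, 20% of chemokines, 9.52% of nucleic acid sensors and 4.17% of MHC class I presentation. CCAAT was in 35.6%, 28%, 28.6% and 70.8%, in the same order. Each motif was counted on its own, and matches of different motifs may overlap. The match nearest to the start is in capitals in each window, which is written 5′ to 3′ along the gene. The 3 genes are Mki67 (chr7:135716452-135716497, strand -), Ncapg (chr5:45669875-45669920, strand +) and Top2a (chr11:99024190-99024232, strand -), whose match reads on the opposite strand:
Mki67: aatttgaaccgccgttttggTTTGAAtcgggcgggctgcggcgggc
Ncapg: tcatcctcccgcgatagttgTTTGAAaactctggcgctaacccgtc
Top2a: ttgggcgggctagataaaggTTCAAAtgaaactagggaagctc
The match begins 98, 30 and 23 bases before the annotated start, in this order. A match of letters is a description of the window and not evidence of binding in these tumors.

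Replication followed the same direction with smaller changes. Of 46 genes of DNA replication and nucleotide supply, 37 fell (38 without ETS tumor 2), none rose, and the median log2 fold change was -0.69. All 6 subunits of the Mcm2 to Mcm7 helicase fell, by 0.60 to 0.77 on the log2 scale. Dut, which removes dUTP from the nucleotide pool, lay at 65.1, 70.3, 95.8 and 79.2 CPM before therapy and 31.3, 39.4, 37.5 and 26.9 CPM after ETS, a log2 fold change of -1.20 (SE 0.16, adjusted p = 0.002). Prim1, the primase that starts each strand, lay at 38.6, 39.3, 48.4 and 41.7 CPM before therapy and 16.5, 23.1, 24.1 and 17.0 CPM after ETS, a log2 fold change of -1.06 (SE 0.15, adjusted p = 0.00236). Cyclin E1 (Ccne1) had a log2 fold change of 0.06 (adjusted p = 0.798), whereas cyclin E2 (Ccne2) fell by 0.84. The motif TTTCCCGC or TTTGGCGC, the usual form of an E2F site, was in 25.6% of the 43 promoter windows of this list and in 1.56% of all windows. It was in 2.66% of the windows of all tested genes and in 5.97% of those of all falling genes.

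The targets of ETS fell as well. Top2a, the topoisomerase of dividing cells, lay at 450.1, 482, 444 and 542 CPM before therapy and 151, 227, 236 and 166 CPM after ETS, a log2 fold change of -1.30 (SE 0.16, adjusted p = 0.00176), and Top2b, the form that resting cells also make, at 106, 110.3, 110.5 and 102 CPM before therapy and 49.0, 59.6, 77.5 and 69.9 CPM after ETS, a log2 fold change of -0.74 (SE 0.13, adjusted p = 0.00474). Top1 fell by 0.90 on the log2 scale. The phosphodiesterases Tdp1 and Tdp2, which free DNA ends from trapped topoisomerase, fell by 0.81 and 0.67. In all, 6 of 11 genes of this list fell and none rose. Of 42 genes of double-strand break repair, 25 fell (24 without ETS tumor 2) and none rose, with a median of -0.49. The count was 16 without ETS tumor 1. Rif1, which protects broken ends from resection, lay at 78.7, 84.4, 88.0 and 92.3 CPM before therapy and 20.4, 37.5, 43.6 and 34.8 CPM after ETS (log2 fold change -1.33, adjusted p = 0.00272), and Chek1, the checkpoint kinase, at 26.4, 29.4, 34.7 and 29.2 CPM before therapy and 12, 13.7, 18.5 and 11.9 CPM after ETS (log2 fold change -1.09, adjusted p = 0.00263).

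Genes of the interferon response rose, and the mean of the antiviral list lay higher in each tumor after ETS than in any before therapy. Of 46 tested antiviral effectors, 41 rose and none fell, against 17.0% rising of all tested genes. Their median log2 fold change was 2.43, and 39 to 42 rose when any tumor was left out, with 41 without ETS tumor 2. With log2(TPM + 1) values the median was 1.54, a scale that understates the change of low genes. Oas3, which makes the 2-5A messenger that activates RNase L (gene ID 246727, chromosome 5, 120753098 to 120777684), lay at 0.125, 0.422, 0.271 and 0.0356 CPM before therapy and 9.0, 3.98, 2.61 and 10.04 CPM after ETS. This is a log2 fold change of 4.90 (SE 0.70, adjusted p = 0.00243), or 29.8-fold. Oasl1, a relative that regulates Irf7 translation, lay at 0.333, 0.924, 0.541 and 0.303 CPM before therapy and 11.9, 10.8, 3.50 and 10.4 CPM after ETS, a log2 fold change of 4.12 (SE 0.50, adjusted p = 0.00166), with ETS tumor 3 lowest of its group. Ifit3b, which blocks translation of viral RNA and is a near copy of Ifit3, lay at 1.67, 1.83, 1.07 and 0.784 CPM before therapy and 23.5, 22.8, 8.40 and 14.4 CPM after ETS, a log2 fold change of 3.69 (SE 0.40, adjusted p = 0.00114). It overlaps the annotated gene Ifit1bl1, and reads of Ifit copies may have been split between them. Oas2 lay at 0.375, 1.09, 0.203 and 0.374 CPM before therapy and 5.97, 4.98, 3.12 and 11.4 CPM after ETS, a log2 fold change of 3.65 (SE 0.58, adjusted p = 0.00331).

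Other members of this list rose too: the GTPases Mx1 and Mx2 by 2.80 and 2.45 on the log2 scale, the ubiquitin-like Isg15 by 2.93 and its protease Usp18 by 3.32. The Ifit family did not move as a unit: Ifit1 rose by 3.34 and Ifit3 by 3.26, whereas Ifit2 had a log2 fold change of 0.37 (adjusted p = 0.069). The other tested effectors without a change past the threshold were Herc6 (log2 fold change 0.07, adjusted p = 0.687), Isg20 (log2 fold change 0.08, adjusted p = 0.929), Ifitm1 (log2 fold change 1.72, adjusted p = 0.108) and Slfn9 (log2 fold change -0.44, adjusted p = 0.126).

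The windows below hold a match to GAAA, any 2 bases and GAAA again, the core of the interferon-stimulated response element, and are shown because their genes all rose, by 2.89 or more on the log2 scale. The motif, on either strand, was in 21 of 45 promoter windows of the antiviral effectors (46.7%, from 39 of the 50 genes listed) in 3.44% of all windows and in 3.08% of those of tested genes. It was in 33.3% of the 21 windows of the nucleic acid sensors, in 4.88% of the windows of all rising genes and in 2.75% of those of all falling genes. Oas3 (chr5:120777705-120777754, strand -), Ifit3b (chr19:34607783-34607832, strand +), Ifi205 (chr1:174031860-174031909, strand -), Ifi211 (chr1:173913054-173913103, strand -) and Ifi207 (chr1:173741821-173741870, strand -) read, from RefSeq and 5′ to 3′ along the gene:
Oas3: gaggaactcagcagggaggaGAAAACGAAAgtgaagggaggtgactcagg
Ifit3b: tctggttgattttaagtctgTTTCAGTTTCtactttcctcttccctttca
Ifi205: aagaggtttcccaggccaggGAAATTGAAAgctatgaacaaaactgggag
Ifi211: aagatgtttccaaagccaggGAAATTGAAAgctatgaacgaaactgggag
Ifi207: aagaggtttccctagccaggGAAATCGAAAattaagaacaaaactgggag
Capitals mark the match, which is on the opposite strand in Ifit3b. The 3 Ifi genes are neighbors of a family on chromosome 1, and their windows resemble each other, so they are not separate examples. No match of these letters was looked for beyond these windows.

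Of 22 nucleic acid sensors and their partners, 18 rose and 1 fell (15 and 1 without ETS tumor 2). The one that fell was Cgas, the sensor of cytosolic DNA, at 6.60, 7.25, 7.41 and 6.64 CPM before therapy and 3.30, 3.90, 4.77 and 4.51 CPM after ETS, a log2 fold change of -0.76 (SE 0.18, adjusted p = 0.012). Its partner STING, listed as Tmem173, rose, at 37.2, 43.2, 21.4 and 22.8 CPM before therapy and 67.0, 69.2, 52.6 and 51.2 CPM after ETS (log2 fold change 0.95, adjusted p = 0.0149). The RNA sensors Ddx58 (Rig-I) and Ifih1 (Mda5) rose by 2.27 and 1.82 on the log2 scale. Ddx58 lay at 22.7, 16.4, 5.99 and 8.5 CPM before therapy and 71.1, 83.5, 37.8 and 65.9 CPM after ETS. The largest rises were of the Ifi200 family of DNA-binding proteins: Ifi205 lay at 0.229, 1.75, 0.931 and 0.214 CPM before therapy and 7.36, 8.21, 3.73 and 23.9 CPM after ETS (log2 fold change 3.79, adjusted p = 0.00845) and Ifi211 at 0.521, 2.05, 0.795 and 0.588 CPM before therapy and 11.5, 9.37, 4.77 and 24.9 CPM after ETS (log2 fold change 3.68, adjusted p = 0.00376). Members of that family are near copies of each other, so that their reads may have been split. Pre-therapy tumor 2 was the highest of its group in both and ETS tumor 4 the highest after ETS.

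Interferons themselves were near the limit of detection. Ifnb1 had 0 counts in 7 tumors and 3 in ETS tumor 2, and Ifng had 0 counts in 6 tumors and 4 in each of pre-therapy tumor 2 and ETS tumor 1. Of 10 tested receptors and signaling genes, 4 rose and none fell, while 3 rose without ETS tumor 2, 2 without pre-therapy tumor 2 and 1 without pre-therapy tumor 3, without pre-therapy tumor 4 or without ETS tumor 1. The receptor chain Ifnar1 lay at 76.3, 82.8, 68.2 and 65.0 CPM before therapy and 71.4, 69.1, 72.1 and 67.9 CPM after ETS (log2 fold change -0.06, adjusted p = 0.654). Socs1, the feedback inhibitor of the JAK kinases, rose, at 0.646, 0.683, 0.423 and 0.160 CPM before therapy and 1.37, 1.29, 1.36 and 1.72 CPM after ETS (log2 fold change 1.59, adjusted p = 0.0156). Of 13 interferon transcription factors, 6 rose. Irf7, the amplifier of type I interferon production, lay at 3.44, 2.63, 2.1 and 1.19 CPM before therapy and 53.3, 27.7, 9.17 and 38.7 CPM after ETS, a log2 fold change of 3.79 (SE 0.53, adjusted p = 0.00236). Irf9, a factor of the interferon response, lay at 14.3, 13.4, 8.43 and 8.25 CPM before therapy and 27.8, 28.7, 20.8 and 31.1 CPM after ETS, a log2 fold change of 1.29 (SE 0.22, adjusted p = 0.00382). Both were separate between groups.

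Antigen presentation rose to a smaller degree. Of 24 tested genes of MHC class I presentation, 18 rose and none fell, with a median log2 fold change of 1.002. Tap1, a chain of the peptide transporter, lay at 8.23, 7.13, 2.03 and 2.26 CPM before therapy and 25.2, 18.8, 21.8 and 36.9 CPM after ETS, a log2 fold change of 2.39 (SE 0.47, adjusted p = 0.00671). B2m, the shared light chain, lay at 164, 162, 136 and 141 CPM before therapy and 340.2, 232, 238 and 394 CPM after ETS, a log2 fold change of 0.998 (SE 0.18, adjusted p = 0.0047). Of the classical heavy chains, H2-D1 rose by 0.95, and H2-K1 lay at 157, 134, 104 and 145 CPM before therapy and 260.5, 111, 215 and 296 CPM after ETS, not past the threshold (log2 fold change 0.71, adjusted p = 0.0689). ETS tumor 2 lay within the pre-therapy range of H2-K1. Heavy chains of the H2-Q and H2-T families are near copies, and their split of reads is uncertain. The guanylate-binding and immunity-related GTPases, known mostly as genes of interferon-gamma, had 7 of 13 rising and a median of 1.82, with a wide spread before therapy. Of 9 tested genes of MHC class II presentation, 4 rose, namely Ctss, H2-DMa, H2-DMb1 and H2-DMb2, and 8 rose without pre-therapy tumor 2. That tumor held 26.1 CPM of Cd74, the invariant chain, against 7.79, 5.40 and 4.08 CPM in the others before therapy.

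Chemokines and complement rose with them. Of 20 tested chemokines, 12 rose and none fell. Ccl5, an attractant of T cells and monocytes, lay at 0.958, 1.49, 0.897 and 0.659 CPM before therapy and 14.5, 14.3, 7.25 and 10.4 CPM after ETS, a log2 fold change of 3.54 (SE 0.33, adjusted p = 0.000716). Ccl2, the main attractant of monocytes, lay at 3.37, 3.90, 1.84 and 1.10 CPM before therapy and 19.5, 11.4, 4.91 and 18 CPM after ETS (log2 fold change 2.40, adjusted p = 0.00833), and Ccl6 at 6.89, 29.6, 15.3 and 8.03 CPM before therapy and 179, 109, 108 and 312 CPM after ETS (log2 fold change 3.56, adjusted p = 0.00279). The ligands of CXCR3, which draw T cells, did not pass the threshold: Cxcl9 lay at 2.23, 7.41, 0.981 and 0.142 CPM before therapy and 12.2, 3.69, 20.3 and 8.25 CPM after ETS (log2 fold change 2.05, adjusted p = 0.114) and Cxcl10 at 9.66, 16, 30.5 and 39.5 CPM before therapy and 8.47, 10.1, 16 and 25.7 CPM after ETS (log2 fold change -0.67, adjusted p = 0.297). In both, the groups overlapped. Of 19 tested complement genes, 16 rose (15 without ETS tumor 2), among them C1qa, of the first component, at 9.89, 32.1, 16.2 and 2.71 CPM before therapy and 151, 69.7, 65.6 and 147 CPM after ETS (log2 fold change 2.83, adjusted p = 0.011), and C4b at 20.3, 40.3, 14.9 and 13.1 CPM before therapy and 233, 109, 136 and 135 CPM after ETS (log2 fold change 2.79, adjusted p = 0.00225).

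**Figure D2:**
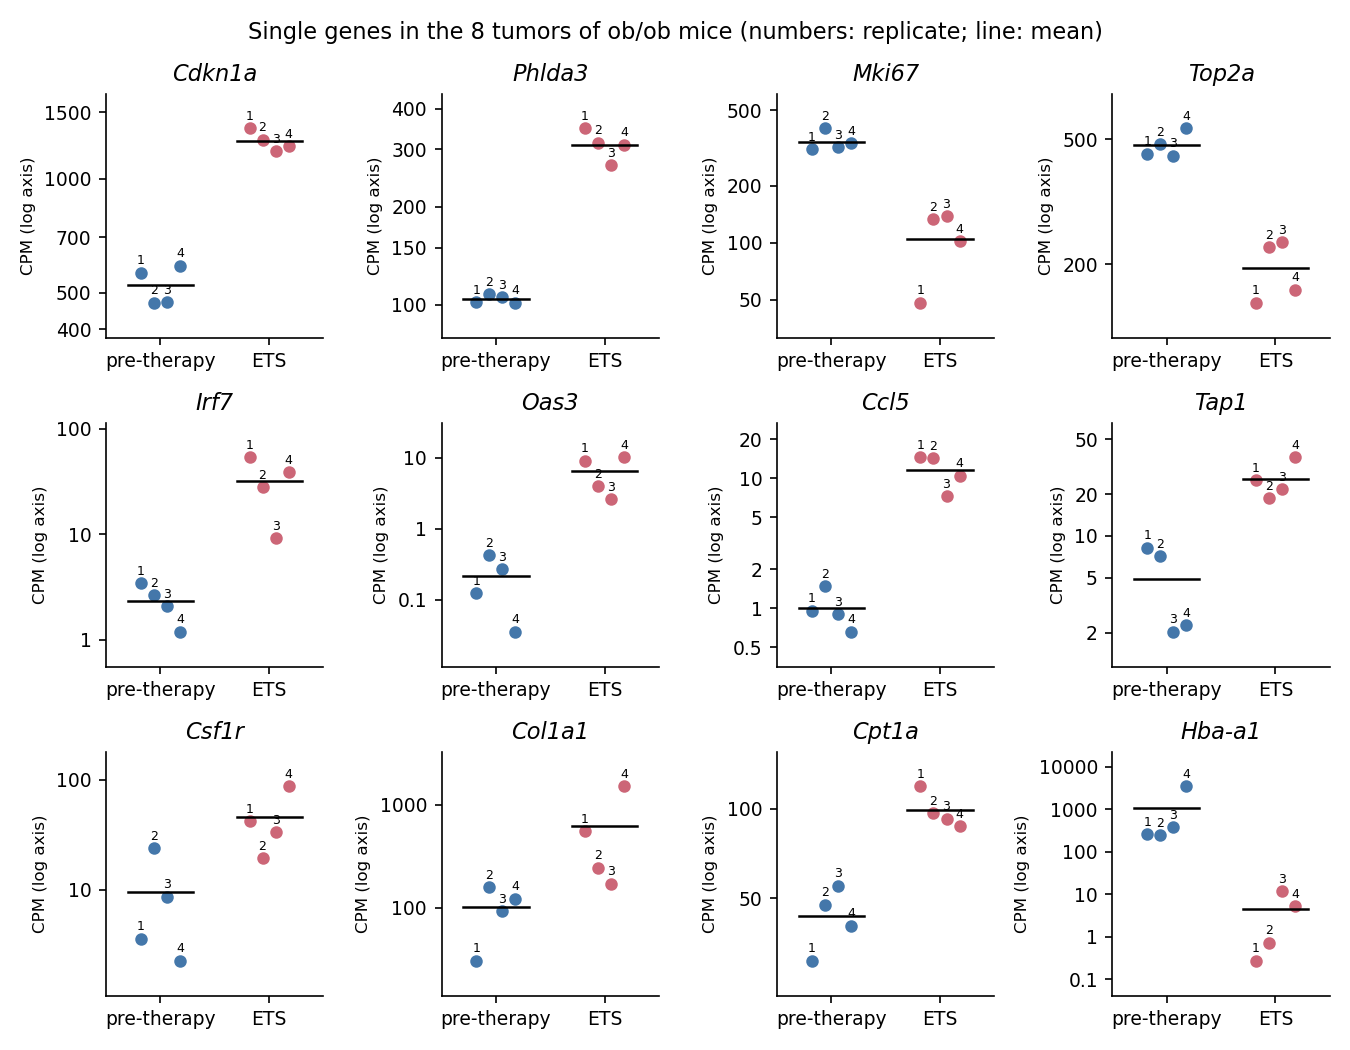
Level of 12 genes (CPM, log axis, a different range in each panel) in the 4 pre-therapy tumors (blue) and the 4 tumors after ETS (red) of ob/ob mice, with replicate numbers and the group mean as a line. The groups are apart in 11 of the 12 panels, and in Csf1r pre-therapy tumor 2 (23.8 CPM) lies above ETS tumor 2 (19.2 CPM).

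Markers of several host cell types were higher after ETS. Of 15 macrophage markers, 13 rose and none fell, with a median log2 fold change of 2.46, and 8 rose without pre-therapy tumor 3. Their summed level was 52.2 to 288 CPM before therapy and 402 to 1261 CPM after ETS. Csf1r, the receptor that macrophages need to survive, lay at 3.56, 23.8, 8.61 and 2.24 CPM before therapy and 41.8, 19.2, 33.3 and 86.8 CPM after ETS (log2 fold change 2.25, adjusted p = 0.0417). Cd163, a scavenger receptor, lay at 0.292, 6.87, 3.08 and 0.802 CPM before therapy and 13.8, 15, 24.1 and 80.2 CPM after ETS (log2 fold change 3.59, adjusted p = 0.0183). Of 10 tested fibroblast markers, 9 rose (8 without ETS tumor 2), 2 without pre-therapy tumor 3 or 4 and 5 without pre-therapy tumor 1 or ETS tumor 4. Dcn, a matrix proteoglycan, lay at 1.40, 10.4, 2.37 and 3.05 CPM before therapy and 24.4, 45.1, 11.7 and 149.7 CPM after ETS (log2 fold change 3.75, adjusted p = 0.0133). Col1a1, the main chain of collagen I, lay at 30.4, 157, 92.1 and 122 CPM before therapy and 556, 245, 170.1 and 1506 CPM after ETS (log2 fold change 2.62, adjusted p = 0.0231), and ETS tumor 4 was highest in all these genes. Of 21 collagens, 19 rose (18 without ETS tumor 2) with a median of 1.59, and 11 rose without pre-therapy tumor 3. Of 27 matrix proteases and crosslinkers, 18 rose (19 without ETS tumor 2), with Mmp3 at 0.396, 4.54, 2.27 and 0.338 CPM before therapy and 21.2, 29.7, 5.11 and 60.7 CPM after ETS (log2 fold change 3.95, adjusted p = 0.0135).

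The antiviral, complement and chemokine lists and the markers of macrophages and fibroblasts were all higher after ETS, and the part of cell composition in the rise of the former was not tested. The lists are not all separate, since the complement and macrophage lists share members such as C1qa. Within the tumors before therapy, tumor 2 was the highest in the macrophage, fibroblast, complement and chemokine lists. The order was not the same in every list: pre-therapy tumor 1 was second in the mean log2 CPM of the antiviral effectors (1.90) and the lowest in that of the fibroblast markers (2.07). Of 13 endothelial markers, 9 rose (10 without ETS tumor 2), but 3 without any of pre-therapy tumors 1, 3 and 4 and 4 without ETS tumor 1. Kdr, the main VEGF receptor, lay at 9.08, 13.7, 9.0 and 7.89 CPM before therapy and 31.0, 19.4, 16.5 and 25.0 CPM after ETS (log2 fold change 1.21, adjusted p = 0.00636).

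T cell markers stayed low. Of 15 T cell markers, only the kinase Lck had a count in each of the 8 tumors, and it fell only without ETS tumor 4. Cd3e, part of the T cell receptor complex, had 0 counts in all 4 pre-therapy tumors and 0, 2, 5 and 19 counts after ETS. The summed level of the list was 3.69 to 5.41 CPM before therapy and 2.14 to 5.97 CPM after ETS. Markers of NK and cytotoxic cells were low before therapy and higher after ETS. Their summed level was 0.962 to 3.60 and 11.5 to 19.4 CPM, of which Ccl5 alone made up 7.25 to 14.5 CPM after ETS, and Ncr1, the NK receptor, had 6, 2, 0 and 17 counts. Gzmb, the granzyme of cytotoxic cells, named after its values were seen, had 7, 0, 0 and 0 counts before therapy and 54, 11, 30 and 73 after ETS. With no exclusion of low counts, 3 of 12 members of this list rose, Gzmb among them (adjusted p = 0.0294). Adipocyte markers had no rising gene among 5 tested, but 3 without pre-therapy tumor 2 and 1 without ETS tumor 4. Adipoq, made by fat cells, had 0, 266, 36 and 12 counts before therapy and 283, 264, 334 and 8 after ETS.

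**Figure D3:**
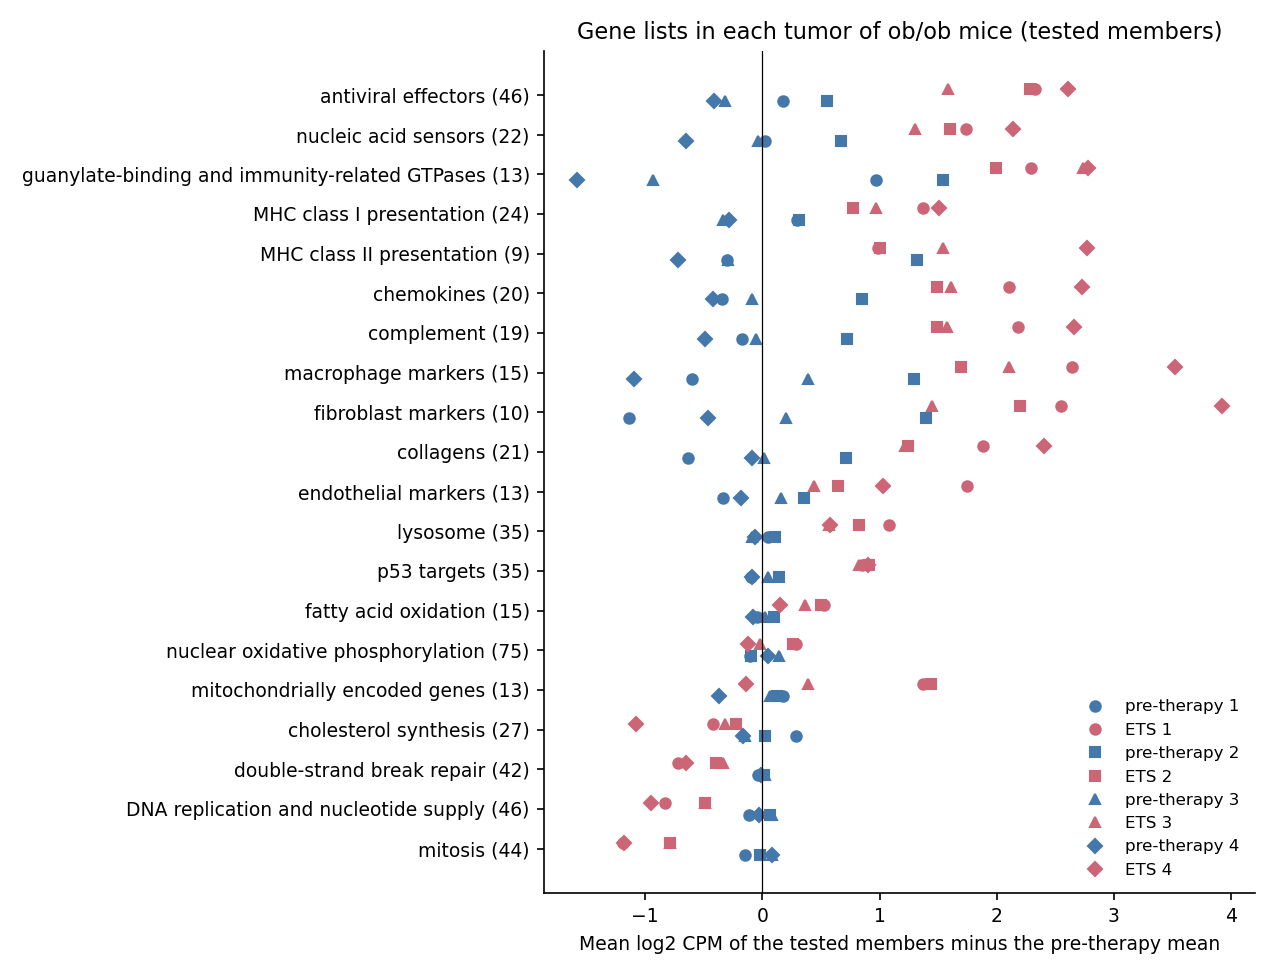
Mean log2 CPM of the tested members of 20 gene lists in each tumor of ob/ob mice, minus the mean of the 4 pre-therapy tumors (blue, pre-therapy; red, ETS; a symbol for each replicate number, which can lie on each other; tested members in brackets). Tumors after ETS lie apart from those before therapy in the antiviral, p53, lysosome, repair, replication and mitosis lists, and overlap with them in MHC class II presentation and in the mitochondrial lists.

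Genes of death pathways moved less uniformly. Of 40 tested genes of apoptosis and lytic death, 14 rose (13 without ETS tumor 2) and 1 fell. The rising count was 8 without pre-therapy tumor 3 and 9 without pre-therapy tumor 4, and 2 fell without pre-therapy tumor 4, ETS tumor 2 or ETS tumor 4. The 1 fall was of Casp2, the caspase linked to DNA damage, which lay at 55.9, 65.3, 58.5 and 60.7 CPM before therapy and 33.8, 34.5, 43.2 and 38.6 CPM after ETS, a log2 fold change of -0.68 (SE 0.10, adjusted p = 0.00263). Bcl2l1 (Bcl-xL), which blocks apoptosis, rose, at 55.2, 57.4, 40.4 and 44.9 CPM before therapy and 140.0, 119, 88.5 and 149.7 CPM after ETS (log2 fold change 1.33, adjusted p = 0.00204). Casp1, of the inflammasome, rose by 1.94 and Gsdmd, the pore that it opens, by 1.04 on the log2 scale. Of 13 N-terminal acetyltransferase genes, which modify the first residue of most proteins, 5 fell (4 without ETS tumor 2) and none rose. The count was 3 without pre-therapy tumor 3 or 4, and 1 rose without ETS tumor 4. Naa10, the catalytic subunit of NatA, lay at 51.6, 50.4, 53.1 and 53.5 CPM before therapy and 35.8, 35.7, 39.4 and 39.4 CPM after ETS, a log2 fold change of -0.47 (SE 0.08, adjusted p = 0.0034). Naa15, which anchors it to the ribosome, lay at 146, 147, 170.4 and 168 CPM before therapy and 72.4, 92.1, 112 and 88.8 CPM after ETS (log2 fold change -0.79, adjusted p = 0.00363).

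Fatty acid oxidation (FAO) rose in part. Of the 15 FAO genes of the study, for which the study does not state whether they were picked on these samples, 8 rose and none fell, with a median log2 fold change of 0.43. The count was 7 without ETS tumor 2 and 5 without pre-therapy tumor 4. On the log2(TPM + 1) scale 5 passed upward and 1 downward. Cpt1a, which loads fatty acids onto carnitine and sets the rate of their entry into mitochondria (gene ID 12894, chromosome 19, 3322326 to 3385735), lay at 30.8, 47.6, 55.2 and 40.4 CPM before therapy and 119, 96.8, 92.7 and 87.6 CPM after ETS. Its groups did not overlap, with a log2 fold change of 1.19 (SE 0.18, adjusted p = 0.00263). Acadvl, which starts oxidation of very long chains, lay at 66.3, 61.6, 64.8 and 71.8 CPM before therapy and 123, 119.9, 104 and 95.2 CPM after ETS, a log2 fold change of 0.74 (SE 0.10, adjusted p = 0.00214). Acsl1, which activates fatty acids, lay at 28.7, 43.0, 29.1 and 30.4 CPM before therapy and 51.4, 51.1, 52.0 and 43.8 CPM after ETS, a log2 fold change of 0.60 (SE 0.14, adjusted p = 0.013). The trifunctional subunits Hadha and Hadhb rose by 0.46 and 0.43 on the log2 scale. Acadm, for medium chains, lay at 35.6, 40.8, 38.5 and 34.6 CPM before therapy and 37.6, 37.8, 41.5 and 31.5 CPM after ETS (log2 fold change -0.01, adjusted p = 0.95), and Acadl, for long chains, at 130.1, 128, 162 and 152 CPM before therapy and 155, 157, 176 and 150.4 CPM after ETS (log2 fold change 0.15, adjusted p = 0.264).

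Among PPAR factors and their targets, 10 of 22 rose and 3 fell, but 3 rose without pre-therapy tumor 4, 4 without pre-therapy tumor 1 or ETS tumor 1, 6 without pre-therapy tumor 3, and 7 without ETS tumor 2. The falling count was 1 without pre-therapy tumor 3 or 4 or ETS tumor 2. Plin2, which coats lipid droplets, lay at 159, 175, 147 and 143 CPM before therapy and 526, 385, 317 and 431 CPM after ETS, a log2 fold change of 1.41 (SE 0.15, adjusted p = 0.00114). Pdk4, which shuts pyruvate out of mitochondria, lay at 0.146, 1.61, 1.39 and 0.837 CPM before therapy and 20.7, 4.71, 4.45 and 2.74 CPM after ETS, a log2 fold change of 3.03 (SE 0.80, adjusted p = 0.0195). Cd36, the fatty acid translocase, lay at 9.04, 46.5, 30.6 and 13.9 CPM before therapy and 180.2, 54.1, 63.7 and 55.0 CPM after ETS, a log2 fold change of 1.82 (SE 0.57, adjusted p = 0.0363), with ETS tumor 1 far above the rest. Macrophages and fat cells also make Cd36. The macrophage marker sum was 754 CPM in that tumor and highest in ETS tumor 4, at 1261 CPM, where Cd36 lay within the range of ETS tumors 2 and 3. The adipocyte marker sum was 21.4, 181, 75.5 and 35.8 CPM before therapy and 322, 170, 203 and 91.2 CPM after ETS. Like Cd36, it was highest in pre-therapy tumor 2 and in ETS tumor 1. The part of either cell type in the rise of Cd36 was not tested. Ppara, the receptor that drives FAO genes in liver, lay at 0.625, 0.784, 0.914 and 0.926 CPM before therapy and 1.0, 1.29, 1.09 and 0.579 CPM after ETS (log2 fold change 0.28, adjusted p = 0.483), and Ppard at 80.4, 66.4, 66.2 and 73.7 CPM before therapy and 92.7, 79.6, 79.6 and 68.2 CPM after ETS (log2 fold change 0.16, adjusted p = 0.294). Pparg, the receptor of fat cells and macrophages, lay at 0.875, 2.13, 1.02 and 0.695 CPM before therapy and 4.75, 2.43, 2.1 and 2.09 CPM after ETS (log2 fold change 1.27, adjusted p = 0.0456), and it missed the threshold without ETS tumor 2 (adjusted p = 0.0615).

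Genes of cholesterol synthesis fell in part. Of 27 genes of cholesterol synthesis, 11 fell (10 without ETS tumor 2) and none rose, although 2 rose without ETS tumor 4, with a median log2 fold change of -0.64. Insig1, the sterol sensor that is itself a target of SREBP, lay at 184, 156, 147 and 133 CPM before therapy and 61.4, 82.4, 97.2 and 43.5 CPM after ETS (log2 fold change -1.12, adjusted p = 0.00721), and Hmgcs1, which makes the HMG-CoA of the pathway, at 200.2, 156, 154 and 166 CPM before therapy and 75.0, 95.5, 119.6 and 52.2 CPM after ETS (log2 fold change -0.98, adjusted p = 0.0112). ETS tumor 4 was lowest in both. Of 19 tested genes of fatty acid synthesis, 2 rose (Acacb and Fads3) and 2 fell (Elovl6 and Fads1), with a median log2 fold change of -0.18, and 1 rose without pre-therapy tumor 3 or 4. Elovl6, which lengthens fatty acids, fell by 1.09 on the log2 scale and Fads1, a desaturase, by 0.62. In the integrated stress and unfolded protein response, 10 of 32 genes fell (8 without ETS tumor 2) and 1 rose, and 22 fell without ETS tumor 4. Those that fell included enzymes of serine and one-carbon synthesis, namely Phgdh at 264, 279, 341 and 326 CPM before therapy and 149.8, 187, 135 and 123 CPM after ETS (log2 fold change -1.02, adjusted p = 0.00242) and Mthfd2 at 138, 145, 229.8 and 227 CPM before therapy and 81.6, 78.7, 71.4 and 116 CPM after ETS (log2 fold change -1.09, adjusted p = 0.00678). They also included the cystine carrier Slc7a11, at 27.9, 21.7, 35.2 and 41.4 CPM before therapy and 11.2, 8.81, 4.88 and 17.7 CPM after ETS (log2 fold change -1.57, adjusted p = 0.0113), and the factor Atf4, at 291, 277, 474 and 497 CPM before therapy and 88.8, 82.4, 132 and 319 CPM after ETS (log2 fold change -1.31, adjusted p = 0.0438). The chaperone Hspa5 of the unfolded protein response had a log2 fold change of 0.02 (adjusted p = 0.976). Of 25 genes of glycolysis, 1 rose and none fell, with 2 rising without ETS tumor 4. Of 29 genes of the hypoxia response, 4 rose, 2 without pre-therapy tumor 3 or 4, and none fell, but 3 without ETS tumor 4. Hif1a, the oxygen-regulated factor, lay at 380.5, 338, 348 and 332 CPM before therapy and 338, 348, 373 and 237 CPM after ETS (log2 fold change -0.11, adjusted p = 0.583).

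Transcripts of the mitochondrial genome depended on single tumors. The 13 genes made up 4.02 to 5.52% of counts before therapy and 11.5, 11.6, 6.64 and 4.63% after ETS, with ETS tumor 4 inside the pre-therapy range. Of them 3 rose. None rose without any 1 of the pre-therapy tumors, ETS tumor 1 or ETS tumor 2, 5 rose without ETS tumor 3, and all 13 without ETS tumor 4. Nuclear genes of oxidative phosphorylation had 2 rising of 75, none without pre-therapy tumor 3, 1 without pre-therapy tumor 1, 2 or 4 or ETS tumor 1 or 2, and 14 without ETS tumor 4. Cytosolic ribosomal proteins had 13 of 82 falling, or 15.9%, near the 15.1% of all tested genes, and their median was -0.25. The falling count was 1 without pre-therapy tumor 3 or 4, 2 without ETS tumor 1, 2 or 3 and 22 without ETS tumor 4. Of 31 subunits of the constitutive proteasome, 14 fell, by 0.72 on the log2 scale in Psmc6. Among lysosomal genes, 24 of 35 rose and none fell, with 20 rising without ETS tumor 2. The protease Ctsb lay at 490.4, 641, 493 and 473 CPM before therapy and 1724, 1436, 1211 and 1582 CPM after ETS, a log2 fold change of 1.5 (SE 0.15, adjusted p = 0.00101), and Ctsd at 878, 983, 912 and 859 CPM before therapy and 2757, 2411, 1611 and 1612 CPM after ETS, a log2 fold change of 1.21 (SE 0.19, adjusted p = 0.00329). Both are also made by macrophages, and their part was not tested.

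Pigmentation genes rose at a share near that of all tested genes. Of 22 genes of pigmentation, 5 rose (22.7%, against 17.0% of all tested genes) and 1 fell (4.55%, against 15.1%). The falling count was 2 without ETS tumor 1. The rising count was 10 without ETS tumor 4, and 3 without pre-therapy tumor 3 or 4 or ETS tumor 1 or 2. Oca2, a melanosome transporter, lay at 39.7, 39.9, 30.5 and 26.8 CPM before therapy and 132, 135, 68.2 and 47.5 CPM after ETS (log2 fold change 1.48, adjusted p = 0.00956). Mitf, the master factor of melanocytes, lay at 678, 845, 502 and 395 CPM before therapy and 454, 533, 431 and 255 CPM after ETS (log2 fold change -0.53, adjusted p = 0.16), and Tyr, the enzyme that makes melanin, at 707, 654, 446 and 397 CPM before therapy and 1459, 1306, 899 and 496 CPM after ETS (log2 fold change 0.92, adjusted p = 0.0571). Of 20 genes of a dedifferentiated melanoma state, 10 rose, and 5 without pre-therapy tumor 3, with 1 falling without ETS tumor 4. The mean log2 CPM of this list was highest in ETS tumors 4 (6.22) and 1 (5.62), as was that of fibroblast markers (7.13 and 5.75). The part of host cells in this list was not tested. Axl, a receptor kinase of that state and also of macrophages, lay at 8.91, 11.6, 13.0 and 12.3 CPM before therapy and 42.9, 29.1, 27.5 and 70.4 CPM after ETS (log2 fold change 1.89, adjusted p = 0.00306).

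The steepest falls were of hemoglobin. Hba-a1 (gene ID 15122, chromosome 11, 32283672 to 32284486) lay at 263, 244, 384 and 3484 CPM before therapy and 0.274, 0.726, 11.8 and 5.27 CPM after ETS, a log2 fold change of -7.91 (SE 1.5, adjusted p = 0.00581), or 239.9-fold lower. Hbb-bt lay at 162, 147, 242 and 2169 CPM before therapy and 0.201, 0.726, 5.35 and 1.60 CPM after ETS, a log2 fold change of -8.41 (SE 1.40, adjusted p = 0.00372). Pre-therapy tumor 4 held about 9 times as much as the next tumor in each of the 4 genes, and ETS tumors 3 and 4 held more than ETS tumors 1 and 2. The DESeq2 test called none of the 4 tested erythroid markers, at a median log2 fold change of -8.12. Hba-a1 and Hba-a2, like Hbb-bs and Hbb-bt, are near copies whose reads may have been split. Other markers of red cell precursors, left out of the test for a count of 0, went the same way. Alas2, which starts heme synthesis in these cells, had 618, 682, 1003 and 8412 counts before therapy and 0, 0, 19 and 6 after ETS. Slc4a1, the anion exchanger of red cells, had 58, 63, 70 and 391 counts before therapy and 0 in all 4 tumors after ETS. In lean hosts the erythroid sum was likewise 114 to 524 CPM before therapy and 0.0520 to 0.320 CPM after ETS (not scaled by TMM).

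**Figure D4:**
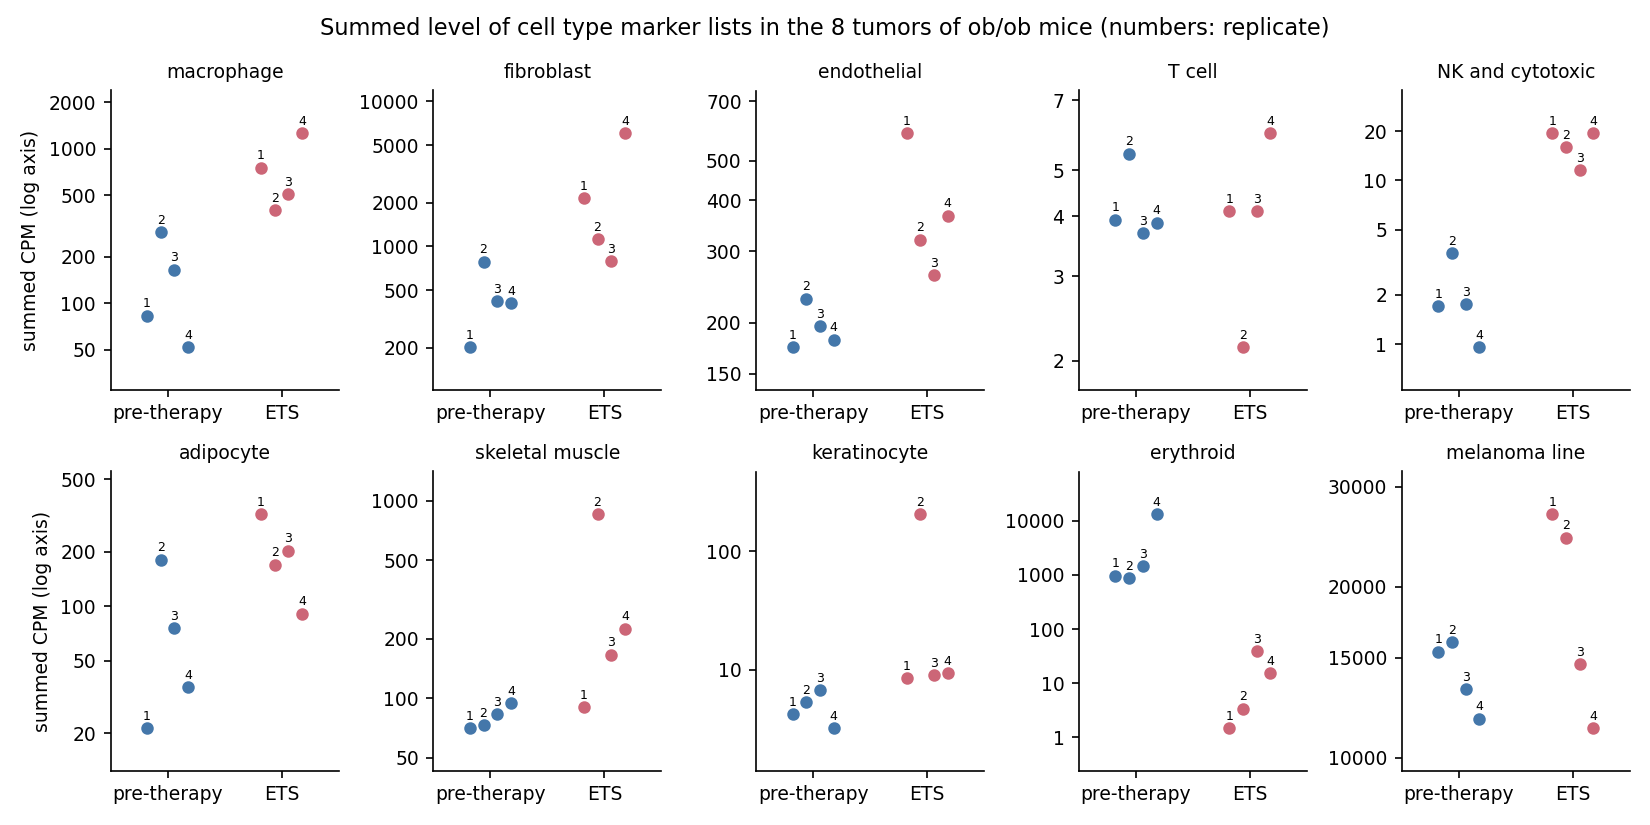
Summed level of 10 cell type marker lists (CPM, log axis, a different range in each panel) in the 4 pre-therapy tumors (blue) and 4 tumors after ETS (red) of ob/ob mice, with replicate numbers. ETS tumor 2 stands alone in skeletal muscle and keratinocyte markers, pre-therapy tumor 4 in erythroid markers, and T cell markers stay under 6 CPM in all 8 tumors.

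The largest rises among protein-coding genes that also passed without ETS tumor 2 began with Atp2a1, the calcium pump of fast muscle. It lay at 0.437, 0.342, 0.305 and 0.321 CPM before therapy and 0.949, 87.3, 0.752 and 1.18 CPM after ETS, and its log2 fold change of 6.00 (adjusted p = 0.0276) became 1.45 (adjusted p = 0.0103) without ETS tumor 2. Wfdc3, a secreted protein with a protease inhibitor fold (gene ID 71856, chromosome 2, 164731226 to 164745994), came next at 0.208, 0.362, 0.271 and 0.232 CPM before therapy and 20.9, 14.2, 4.43 and 1.67 CPM after ETS. It had a log2 fold change of 5.25 (SE 0.79, adjusted p = 0.00271), and 5.05 (adjusted p = 0.00697) without ETS tumor 2. Svop, a vesicle membrane protein that shares part of its locus with Gm16108, lay at 0.0833, 0.301, 0.186 and 0.0534 CPM before therapy and 7.05, 6.20, 3.46 and 1.44 CPM after ETS, a log2 fold change of 4.84 (SE 0.66, adjusted p = 0.0021). Chl1, an adhesion molecule of neurons, lay at 0.0833, 0.422, 0.237 and 0.0534 CPM before therapy and 1.66, 3.71, 1.18 and 10.4 CPM after ETS (log2 fold change 4.40, adjusted p = 0.00652), and Cpxm1, a secreted carboxypeptidase-like protein, at 0.292, 3.88, 1.81 and 0.232 CPM before therapy and 18.5, 24.8, 7.65 and 81.9 CPM after ETS (log2 fold change 4.42, adjusted p = 0.011). The lipocalin Apod lay at 1.15, 2.03, 0.745 and 0.338 CPM before therapy and 12.9, 34.7, 11 and 13.2 CPM after ETS (log2 fold change 4.08, adjusted p = 0.00244), and the acute phase protein Saa3 at 0.979, 2.01, 0.778 and 3.46 CPM before therapy and 8.25, 5.58, 4.21 and 96.8 CPM after ETS (log2 fold change 3.99, adjusted p = 0.0237), where ETS tumor 4 exceeded the other 3 by more than 10-fold. Plac8 and Ms4a4c, both expressed in myeloid cells, rose by 3.94 and 3.92 on the log2 scale. Oas3, Oasl1 and Mmp3 complete this set of 12.

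After hemoglobin, the largest falls were of Cth, which makes cysteine from cystathionine, at 7.75, 6.77, 15.1 and 9.24 CPM before therapy and 2.15, 2.38, 1.38 and 2.09 CPM after ETS, a log2 fold change of -2.28 (SE 0.30, adjusted p = 0.002), and of Hmgb2, a chromatin protein of dividing cells, at 187, 198, 291 and 262 CPM before therapy and 32.4, 52.9, 68.3 and 55.9 CPM after ETS, a log2 fold change of -2.16 (SE 0.23, adjusted p = 0.00113). Smc4, Adamts20 (-1.79), Ccdc18 (-1.77), Epha3, BC005561 (-1.72) and Mki67 followed on the log2 scale. Epha3, an ephrin receptor, lay at 119, 99.0, 117 and 147 CPM before therapy and 38.1, 33.4, 41.8 and 30.2 CPM after ETS, a log2 fold change of -1.75 (SE 0.14, adjusted p = 0.000578). It was also among the 6 falls with the smallest p-values, with Pold2, Gm11847, Mars, Lmnb1 and Hirip3. Lmnb1, lamin B1, lay at 93.3, 110.1, 109 and 105 CPM before therapy and 40.5, 48.1, 51.6 and 39.7 CPM after ETS, a log2 fold change of -1.21 (SE 0.11, adjusted p = 0.000716). The smallest adjusted p of all was that of Fblim1, a protein of cell and matrix junctions (gene ID 74202, chromosome 4, 141576062 to 141606052), at 10.1, 9.99, 10.5 and 8.59 CPM before therapy and 59.8, 44.7, 55.2 and 50.6 CPM after ETS, a log2 fold change of 2.43 (SE 0.12, adjusted p = 7.62e-05). Ak1, adenylate kinase, lay at 22.6, 30.0, 27.6 and 20.9 CPM before therapy and 86.6, 90.6, 103 and 84.3 CPM after ETS (log2 fold change 1.85, adjusted p = 0.000578) and Slc19a2, a thiamine carrier, at 28.3, 33.0, 29.8 and 33.0 CPM before therapy and 63.1, 63.1, 68.5 and 67.5 CPM after ETS (log2 fold change 1.08, adjusted p = 0.000578). In these genes the groups did not overlap. Some named genes share part of their locus with another annotated gene, such as Atp2a1 with Rabep2, Ncapg with Lcorl, Ctsb with Fdft1, Pold2 with Aebp1 and Mars with Ddit3, and whether strand was used in counting is not stated, so that their reads cannot be told apart.

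Without ETS tumor 2, 4159 of the 5417 changed genes passed the threshold in the same direction, 1258 did not pass, 199 others did, and no gene that had changed turned its sign. Of the genes lost, 559 had risen and 699 had fallen. The largest rises lost were those of Actn3, an actinin of fast muscle, at 0.187, 0.221, 0.288 and 0.160 CPM before therapy and 0.347, 17.3, 0.416 and 0.404 CPM after ETS (log2 fold change 4.41, adjusted p = 0.0394), which became 0.86 (adjusted p = 0.0501) without that tumor, and Kcnj13, a potassium channel of pigment cells, at 7.39, 3.76, 0.711 and 0.677 CPM before therapy and 59.5, 72.6, 10.4 and 1.77 CPM after ETS (log2 fold change 3.53, adjusted p = 0.0416), which became 2.92 (adjusted p = 0.0947). F2rl1, Lum, Svep1 and Ryr1 followed. Ryr1, the calcium release channel of muscle, kept a log2 fold change of 0.89 from 2.81, whereas that of Lum, a fibroblast proteoglycan, stayed at 3.39 from 3.43. Of 12 tested muscle markers, 6 rose with the tumor and 3 without it, and 2 without any 1 of the pre-therapy tumors. The fall of mitosis and the rise of antiviral effectors each had the same count with and without it.

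With limma on log2(TPM + 1) other lists also had counts that differed by more than 1.5 times. Rising genes numbered 1 in interferon receptors and signaling, 9 in apoptosis and lytic death, 5 in PPAR factors and targets, 2 in the hypoxia response and 6 in the dedifferentiated melanoma state. They numbered 4 among endothelial, 5 among fibroblast and 2 among muscle markers and 0 among mitochondrially encoded genes, and 21 cytosolic ribosomal protein genes fell. With DESeq2, 9 pigmentation genes, 12 mitochondrially encoded genes and 4 nuclear genes of oxidative phosphorylation rose and 27 cytosolic ribosomal protein genes fell. The DESeq2 test also called 2 muscle, 2 adipocyte and 3 melanoma line markers as rising, and none of the 4 tested erythroid markers. With no exclusion of low counts, 1 gene of interferon receptors and signaling and 5 of the PPAR list rose.

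Some genes with a count of 0 before therapy, which were therefore not tested, were well counted after ETS. 394 genes, 324 of them protein-coding, had at least 10 counts in each tumor after ETS and 0 in at least 1 before therapy, and 66 showed the converse. Chosen after their values were seen, Has1, which makes hyaluronan, had 0 counts in all 4 pre-therapy tumors and 44, 27, 32 and 193 after ETS. Ifi208, of the Ifi200 family, had 0, 6, 0 and 2 counts before therapy and 154, 81, 40 and 140 after ETS. Il1rl1, the receptor of interleukin 33, had 0, 11, 0 and 0 counts and then 107, 170, 10 and 914.

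The same comparison in lean hosts gave the test of what differed between hosts. The difference of the effects was tested by an interaction over all 16 tumors in 16209 genes without a count of 0 in any, and 2660 passed an adjusted p of 0.05, 1630 more positive in ob/ob hosts (10.1%) and 1030 more negative (6.35%). With log2(TPM + 1) values the split was 2239 and 228. The latter count was 594 without lean pre-therapy tumor 4, 672 without lean ETS tumor 2 and 676 without ob/ob pre-therapy tumor 4. Muscle transcripts were present in lean pre-therapy tumors 2 and 4 and lean ETS tumors 1 and 2, with 821 to 5506 counts of Acta1 against 0 to 9 in the other 4. Of 46 antiviral effectors, 43 were more positive in ob/ob hosts and none was more negative, with a median log2 fold change of 2.44 there and -1.64 in lean hosts. All 13 guanylate-binding and immunity-related GTPases differed in that direction, as did 21 of 24 genes of MHC class I presentation and 13 of 14 macrophage markers. Oas3 had a log2 fold change of -3.15 in lean hosts against 4.91 in ob/ob hosts (difference 8.06, SE 0.91, adjusted p = 4.36e-05). Gbp5, a GTPase of the interferon-gamma response, had a log2 fold change of -4.97 in lean hosts against 2.89 in ob/ob hosts (difference 7.86, SE 0.92, adjusted p = 5.77e-05). Its levels were 49.0 and 1.56 CPM (means before and after) in lean hosts and 0.417 and 3.01 CPM in ob/ob hosts, so that tumors of lean hosts began far higher. The lean pre-therapy tumors held 139 to 258 counts of Cd3e and 4235 to 11013 of Cxcl9, against 0 and 8 to 369 counts in the ob/ob pre-therapy tumors. The part of such cells in the differences was not tested. Apol9a, Ifi206, Ifi211 and Ifi205 complete the 6 largest differences of this direction.

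The medians of the cell division lists were negative in both hosts. Of 44 mitosis genes 4 differed, all more negative in ob/ob hosts, as were 6.35% of all tested genes. The mitosis medians were -0.91 in ob/ob and -0.70 in lean hosts, and 1 of 46 replication genes differed. Without ETS tumor 2 these counts were 6 and 3, all more negative in ob/ob hosts. Among 35 p53 targets, 3 were more positive and 8 more negative in ob/ob hosts (3 and 9 without ETS tumor 2). Cdkn1a had a log2 fold change of 3.44 in lean hosts against 1.27 in ob/ob hosts (difference -2.17, SE 0.29, adjusted p = 0.000185), and Phlda3 a log2 fold change of 3.07 in lean hosts against 1.58 in ob/ob hosts (difference -1.49, SE 0.28, adjusted p = 0.00197). Mdm2 had a log2 fold change of 0.80 in lean hosts against 0.83 in ob/ob hosts (difference 0.02, SE 0.17, adjusted p = 0.941). Of the 15 FAO genes, 2 differed, both more positive in ob/ob hosts, as were 10.1% of all tested genes. Without ETS tumor 2, 1 FAO gene was more negative there. The median log2 fold change of the 15 was 0.44 in ob/ob and 0.51 in lean hosts. Cpt1a had a log2 fold change of 0.31 in lean hosts against 1.19 in ob/ob hosts (difference 0.88, SE 0.22, adjusted p = 0.0127) and Acsl1 a log2 fold change of 0.01 in lean hosts against 0.60 in ob/ob hosts (difference 0.59, SE 0.17, adjusted p = 0.0303). Of 75 nuclear genes of oxidative phosphorylation, 48 were more negative in ob/ob hosts (55 without ETS tumor 2), with medians of 0.14 and 0.67. The scaling bears on small differences of this kind: on the log2(TPM + 1) scale the median difference over all genes moved by 0.26, and 20 of the 75 passed. The 6 largest differences toward lean hosts were in Fxyd3, Cox7a1, Tenm4, Rn7s1, Rn7s2 and Inka2. Tenm4, a teneurin, fell in ob/ob hosts, at 14.3, 10.8, 11.5 and 13.4 CPM before therapy and 5.24, 5.37, 4.96 and 2.51 CPM after ETS, and had a log2 fold change of 1.23 in lean hosts against -1.46 in ob/ob hosts (difference -2.70, SE 0.46, adjusted p = 0.00106).

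**Figure D5:**
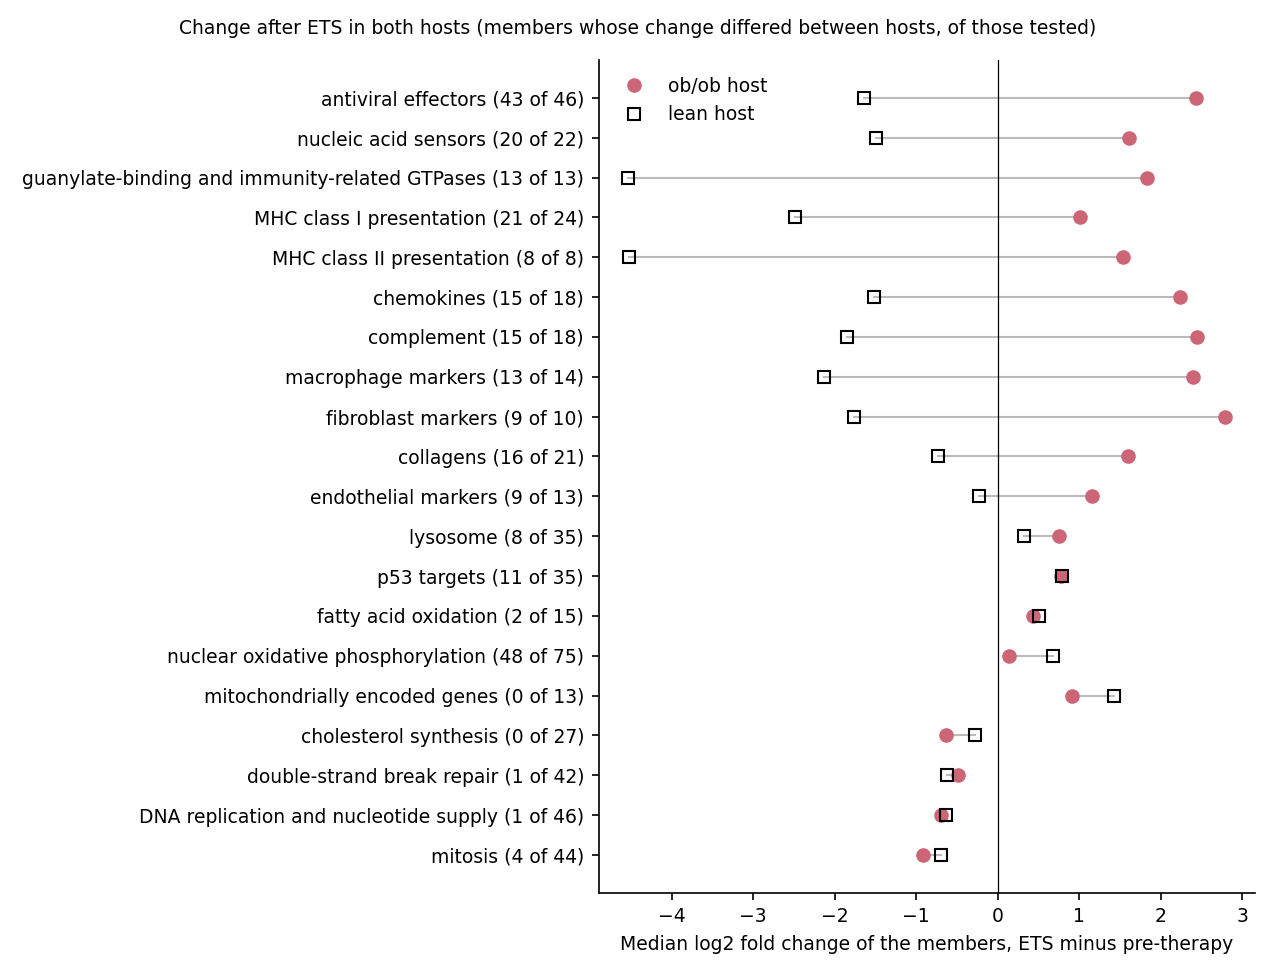
Median log2 fold change after ETS of the members of 20 gene lists in ob/ob hosts (red circles) and lean hosts (open squares), with the number of members whose change differed between hosts (edgeR interaction, adjusted p under 0.05) of those tested in brackets. Interferon, antigen presentation and stromal lists lie on opposite sides of 0, and the p53, replication and mitosis lists on the same side.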

How the data were processed

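Total mRNA of whole tumors had been sequenced as paired reads after a stranded poly(A) library preparation. The authors trimmed reads with Trimmomatic, aligned them to mm10 with HISAT2 2.1.0 and quantified genes with StringTie 2.1.3b, as the submitters' processing notes and the methods state, and whether strand was used in counting is not stated. The deposited table holds raw read counts per gene for each library, beside TPM values and FPKM values that the authors derived from the same reads (FPKM was not used here). Genes with a count of 0 in any of the 8 libraries were left out. The study also excluded genes with zero counts, over samples that its methods do not name. Counts were TMM-scaled and tested with edgeR 4.0.16 (quasi-likelihood, R 4.3.3), where p-values were adjusted by the Benjamini-Hochberg method across the tested genes and called under 0.05. The comparison with lean hosts was the interaction in a fit of all 16 libraries. The code was tested on simulated counts with planted changes, where the exact and DESeq2 tests made more false calls than their nominal share. The quasi-likelihood test of the ob/ob tumors made fewer false calls than these, but its share was also above the nominal one. The requirement on recovery of 2-fold changes was dropped after the first such run, in which the interaction fit with a replicate block missed it. Levels are TMM-scaled CPM, unless counts are named.

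The gene lists, the comparison and its members were chosen with earlier results of these data known. Genes named were the 12 largest rises and falls that also passed without ETS tumor 2, up to 4 members of each list with separate groups, genes the study discusses, the 6 largest differences from lean hosts in each direction, the 6 largest changes lost without ETS tumor 2 and the 6 smallest p-values in each direction. Some genes that met these rules are not reported here. Any other gene was named with its values known. Alternatives were DESeq2 1.42.0 (size factors and test), an exact test on counts plus 1, limma 3.58.1 (voom, and log2(TPM + 1)), other filters, all libraries in the fit, a replicate block and each library left out. No pair of libraries agreed within sampling noise. Coordinates and promoter windows are from RefSeq on GRCm38.p6, the build of mm10, where 45679 of 45777 gene IDs matched.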

Additional observations from a re-analysis of the deposited data

Results flagged for a closer look

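Single tumors stood far from the other 3 of their group in 11 of 156 groups of 4 screened by Dixon's gap test on log2 values (the genes with the largest changes, the genes with the smallest p-values, the genes the study discusses, and 15 cell type lists), where chance alone gives about 1 in 20. ETS tumor 2 held 87.3 CPM of Atp2a1 (others after ETS 0.752 to 1.18), 34.7 CPM of Apod (11.04 to 13.2) and 205 CPM of summed keratinocyte markers (8.47 to 9.35). ETS tumor 3 held 3.50 CPM of Oasl1 (10.4 to 11.9), and ETS tumor 1 held 31.7 CPM of Smc4 (54.6 to 59.4) and 180.2 CPM of Cd36 (54.1 to 63.7). ETS tumor 4 held 43.8 CPM of Acsl1 (51.1 to 52.0) and 189 CPM of Hadhb (238 to 244). Before therapy, tumor 4 held 3484 CPM of Hba-a1 (244 to 384), and tumor 2 held 43.0 CPM of Acsl1 (28.7 to 30.4) and 5.41 CPM of summed T cell markers (3.69 to 3.94).

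The change after ETS differed between ob/ob and lean hosts in 2660 genes (edgeR interaction, adjusted p under 0.05). The largest differences in log2 fold change, ob/ob minus lean, were 8.06 in Oas3, 7.86 in Gbp5, 7.70 in Apol9a, 7.65 in Ifi206, 7.37 in Ifi211 and 7.33 in Ifi205. In the other direction they were -2.73 in Fxyd3, -2.70 in Cox7a1, -2.70 in Tenm4, -2.36 in Rn7s1, -2.35 in Rn7s2 and -2.30 in Inka2. Rn7s1 and Rn7s2 are near copies of 1 abundant noncoding RNA, whose reads may have been split.

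Markers left out of the test for a count of 0 also carried signal after ETS. Keratinocyte markers summed to 158 CPM in ETS tumor 2, against 0 in the tumors before therapy, and mast cell markers to 12.9 CPM in the same tumor, against at most 1.17 CPM before therapy. Fibroblast markers outside the test summed to at least 6.26 CPM in each tumor after ETS, against at most 5.06 CPM before, and skeletal muscle markers to at least 0.474 CPM, against at most 0.355 CPM.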

How the results depend on the processing

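The number of genes changed after ETS was 5417, with 3473 to 5807 when 1 tumor was left out (3473 without pre-therapy tumor 3, 3577 without pre-therapy tumor 4), 1780 to 3108 of them rising and 1693 to 2699 falling. Changes of 2-fold or more numbered 2018 to 2580 (1676 to 2005 higher) without 1 tumor, and 1007 (715 higher) with limma on log2(TPM + 1) in place of 2296. Genes whose change was more positive in lean than in ob/ob hosts numbered 1030, and 594 to 1370 without 1 tumor, namely 594 without lean pre-therapy tumor 4, 672 without lean ETS tumor 2 and 676 without ob/ob pre-therapy tumor 4. They numbered 1603 with limma-voom and 228 with log2(TPM + 1), which shifted the median of the difference by 0.26. The cause of these moves was not tested.

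Median log2 fold changes near 0 changed sign with log2(TPM + 1): glycolysis to -0.0553, hypoxia response to -0.0925 and antioxidant genes to -0.009. Acadm changed sign to 0.0106 with limma-voom, 0.0334 without pre-therapy tumor 2, 0.0029 without pre-therapy tumor 3 and 0.0597 without ETS tumor 4, and Hif1a to 0.0132 without ETS tumor 4, none past the threshold. Without 1 tumor, Acadm ranged from -0.0703 to 0.0597 and Hif1a from -0.1835 to 0.0132. The 12 genes named for their difference from lean hosts kept their call and direction in each alternative run. Leaving hemoglobin and mitochondrially encoded genes out of the fit, chosen after seeing the data like the list counts without tumors other than ETS tumor 2, gave 5438 changed genes.

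Whether the replicate numbers pair the tumors is not stated, and 4 tumors in a group are too few to settle it. Same-numbered tumors correlated at 0.15, -0.03, 0.08 and 0.21 in their deviations from the group means. ETS tumors 1, 3 and 4, but not ETS tumor 2, correlated best with their own number. With a replicate block 6052 genes changed (2235 at 2-fold), and 2930 differed from lean hosts. The 8 libraries held at least 47199949 counts each, where the 3 counts that a 0 allows correspond to at most 0.0636 CPM.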

Other observations

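Several lists not described with the comparison held genes of interest. Of 14 checkpoint ligands and receptors, 6 rose and none fell, but 2 without pre-therapy tumor 3 or 4 and 3 without ETS tumor 1. Cd274 (PD-L1), the ligand that restrains T cells, rose by 0.94 on the log2 scale (adjusted p = 0.0412), and Vsir (VISTA) by 2.03 (adjusted p = 0.0191). Of 25 genes of senescence and its secretions, 11 rose (10 without ETS tumor 2) and 2 fell, with a fall of 1 alone without any of the pre-therapy tumors or ETS tumor 3. Those that rose included Spp1 (osteopontin) at 2.45 and Timp1, an inhibitor of matrix proteases, at 2.11 on the log2 scale. The 2 that fell were Lmnb1 and Cdkn2c. Of 31 antioxidant genes, 9 rose (7 without ETS tumor 2) and 5 fell, 3 falling without pre-therapy tumor 2, 3 or 4 or ETS tumor 1 or 2. Gpx3, the secreted peroxidase, rose by 3.22, while Txnrd1, the thioredoxin reductase that NRF2 drives, fell by 0.70.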
